A study of Mus musculus with 12 samples.

Results

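Neuronal differentiation and cytoskeleton genes were followed as a group of 36 genes in neural stem cells of mouse embryos that lack E12 or E47. The 36 genes were taken by symbol from a fixed list with no filter on their values, and all 36 were found among the 37620 genes counted. The list was chosen with earlier results of these data known. The gene Tcf3 yields E12 and E47 by alternative splicing, and both proteins belong to the E protein family of basic helix-loop-helix transcription factors. The cells came from C57BL/6J embryos at stage E14.5 and were kept dividing in Neurobasal-A medium with B-27, FGF-2 and EGF. There were 3 libraries in each of 4 groups: E12KO (E12-/-), E12wt (E12+/+, litter mates of the E12-/- animals), E47KO (E47-/-) and E47wt (E47+/+, litter mates of the E47-/- animals). E12KO was compared with E12wt and E47KO with E47wt. The labels name no other allele, no promoter and no Cre. Nor do they tell whether the 3 libraries of a group were made from different embryos or cultures. The p-values given here thus rest on a spread among libraries that may be technical. For E47wt, the Xist levels given below show that not all libraries came from the same embryo.

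When a neural progenitor leaves the cell cycle and becomes a neuron, it builds a microtubule-rich cytoskeleton, extends an axon tipped by a growth cone, switches on RNA-binding proteins that shape neuronal transcripts, and later assembles the machinery for transmitter release. E proteins pair with proneural basic helix-loop-helix factors such as those of the Neurog and Ascl families, and these pairs bind the E-box, a short DNA motif, and can switch on genes of neuronal differentiation. Id proteins bind E proteins and keep them from DNA, and are known for holding progenitors in the undifferentiated state.

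The libraries held 34515297 to 56835783 reads assigned to genes, and values below are counts scaled to 1e+06 reads per library (CPM), corrected by the trimmed mean of M-values (TMM). A count of 3 reads, taken as the floor of detection, lay between 0.0541 and 0.0832 CPM. Markers of neural stem cells were high in every library, with 13 of them summing to 9941 to 11658 CPM, among them Nes at 1159 to 1709 CPM and Sox2 at 203 to 266 CPM. Of markers of other cells a neural culture could hold, 10 mesenchyme genes summed to 26.6 to 67.8 CPM, 10 microglia genes to 3.10 to 10.01 CPM and 8 endothelium genes to 3.02 to 7.84 CPM. Tcf3 counts cannot separate E12 from E47, so they do not check the knockout; Tcf3 was at 72.9 to 101 CPM in E12KO, 75.8 to 82.2 CPM in E12wt, 108 to 118 CPM in E47KO and 75.4 to 97.2 CPM in E47wt. E47KO replicate 2 stood apart from the other 11 libraries on the first principal component (39.6% of the variance), at 64.0 against −17.3 to 10.3, and E12wt replicate 3 had the lowest correlations within the E12 line (0.982 and 0.985). Xist was at 0.252 to 0.791 CPM in all 3 E47KO libraries and at 0.835 CPM in E47wt replicate 2, whereas the other E47wt libraries had 885 and 1115 CPM and the 6 E12 libraries 1014 to 1509 CPM, so sex and genotype are partly tied together in the E47 line. Y-linked genes summed to 245 CPM in E47wt replicate 2, against 0.408 and 0.362 CPM in E47wt replicates 1 and 3. The 3 E47wt libraries were therefore not all made from the same embryo.

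Of the 36 genes, 30 averaged at least 1 CPM over the 12 libraries and 6 averaged less. In the test of the E12 line 30 passed the low-count filter, and in that of the E47 line 31 did. No gene of the group passed an adjusted p of 0.05 with edgeR's quasi-likelihood test and Benjamini-Hochberg (BH) adjustment over all genes in either line, where the share of all tested genes called was 0.0407% in E12KO (6 of 14755) and 0.0134% in E47KO (2 of 14965). In E12KO, 24 of the 30 tested genes had a fitted log2 fold change below 0, with a median of −0.27, beside 48.6% of all tested genes and a median of 0.00. In E47KO, 23 of 31 lay below 0, with a median of −0.14, beside 51.0% of all tested genes and a median of −0.01. Of the 6 genes above 0 in E12KO, Nptx1 was farthest from it, at 0.93. In bulk RNA, fewer neurons among the stem cells and less RNA of these genes per cell, in neurons or in other cells, cannot be told apart. Which cells of the culture the reads came from was not measured. Over the 12 libraries Map2 averaged 1106 CPM, while Stmn2 averaged 0.0842 CPM and Slc17a6 had 0 reads.

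Markers of some other cell types also lay mostly below 0 in E12KO. Of the 14 oligodendrocyte lineage markers 11 were tested and 10 lay below 0, with a median of −0.59. At an unadjusted p under 0.05 (edgeR), 4 were lower, beside 4.67% of all tested genes, and none was called. They summed to 1013 to 1235 CPM in E12KO and 1145 to 1647 CPM in E12wt, and Mog had 0 reads in all 6 libraries. Of the 10 mesenchyme markers 7 were tested and 6 lay below 0, with a median of −3.45. Of these, edgeR called 3 lower (Col1a1, Col1a2 and Bgn, of the 4 genes called lower over all) and DESeq2 5 (of the 47 called lower over all). Col1a1, a collagen chain, had 0.992, 0.975 and 1.19 CPM in E12KO libraries, against 3.47, 3.86 and 3.98 CPM in E12wt libraries, with no overlap and a log2 fold change of −1.83 ± 0.18 (edgeR, BH-adjusted p = 0.0105). The sums of the mesenchyme markers overlapped, at 44.6 to 49.5 CPM in E12KO and 37.0 to 65.4 CPM in E12wt. Of 9 intermediate progenitor markers 7 lay below 0, with a median of −0.11, and so did 4 of 11 astrocyte markers (median 0.23) and 6 of 10 proliferation genes (median −0.02). In E47KO, 4 of 11 oligodendrocyte lineage markers (median 0.06), 3 of 5 mesenchyme markers (−0.05), 3 of 9 intermediate progenitor markers (0.33), 2 of 11 astrocyte markers (0.47) and 9 of 10 proliferation genes (−0.12) lay below 0. The part of these markers in the result for the neuronal genes was not tested.

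**Figure D1:**
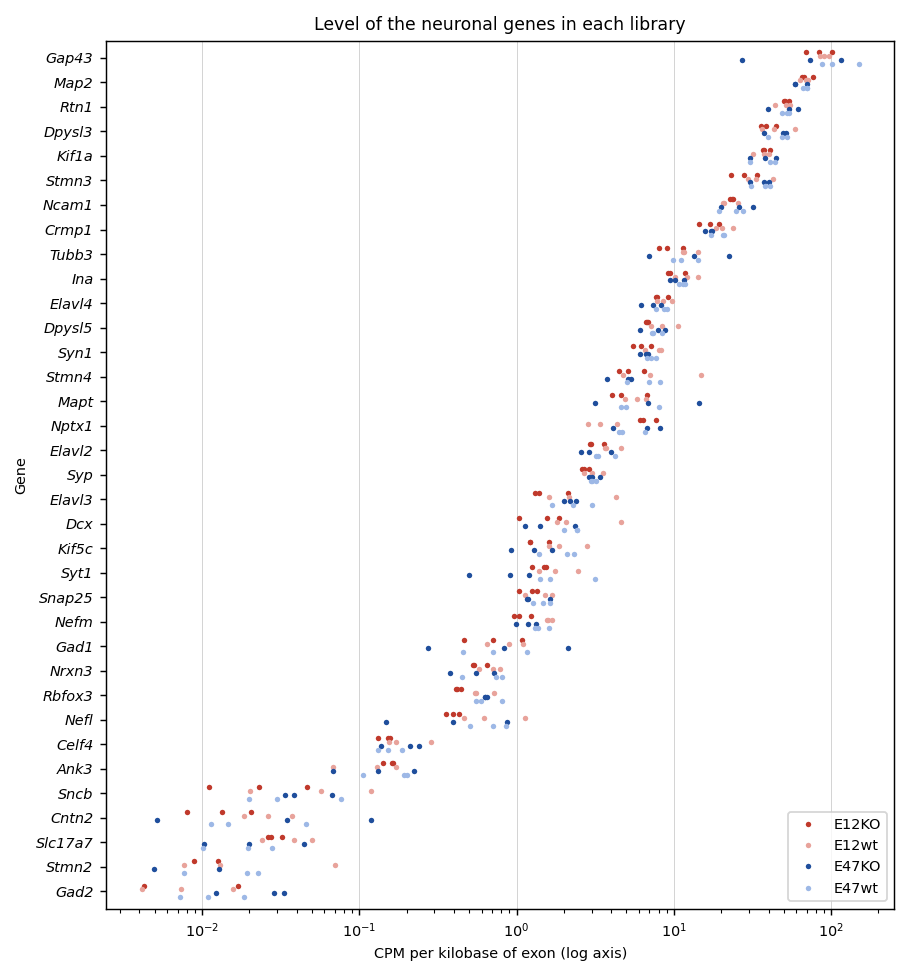
Level of 35 of the 36 genes in each of the 12 libraries, in CPM per kilobase of exon on a log axis, ordered by the mean, with 1 point per library and the 4 groups in colours. Slc17a6, with no read in any library, and single libraries at 0 are not drawn; Gap43, Map2 and Rtn1 are at the top with means of 90.0, 67.2 and 51.4 CPM per kilobase, and for most genes the colours overlap.

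Promoter sequences were looked at for the motif that E proteins bind. The E-box has the letters CANNTG. Among its forms are CAGCTG, which reads the same on both strands, and the form written here as CAGGTG, which was searched on both strands. RefSeq promoter windows of build GRCm38.p6, which is not the mm9 build named for the reads, were held for 24 of the 36 genes, with 41 transcription starts. The genes with no window in that table were Nptx1, Ncam1, Mapt, Nefl, Dpysl3, Stmn4, Gap43, Ank3, Nefm, Snap25, Celf4 and Stmn2. Within the 250 bases before the start, CANNTG was found, on either strand, in 25 of these 41 windows (61.0%) and in 66.2% of 32851 windows of all genes. CAGCTG was found in 14.6% of the group's windows and 13.0% of all, and CAGGTG in 26.8% of the group's windows and 17.2% of all. Windows of 1 gene overlap where its starts lie close together, and every CAGCTG or CAGGTG is also counted as CANNTG. Below are 4 windows of genes whose values are described in detail, chosen to show windows with several, 1 or no E-box; each reads 5′ to 3′ on the strand of the gene and ends at the base before the start, and capitals mark the E-boxes. They are the window of Elavl3 at chr9:22052024-22052273 (minus strand), that of Kif5c at chr2:49619036-49619285 (plus strand), that of the second start of Syt1 at chr10:109009112-109009361 (minus strand) and that of the first start of Dcx at chrX:143933220-143933469 (minus strand).
Elavl3: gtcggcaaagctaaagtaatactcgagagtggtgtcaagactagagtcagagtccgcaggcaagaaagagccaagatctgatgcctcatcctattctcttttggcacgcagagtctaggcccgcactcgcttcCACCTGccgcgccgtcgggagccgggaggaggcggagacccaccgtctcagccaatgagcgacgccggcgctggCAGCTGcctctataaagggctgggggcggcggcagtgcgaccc
Kif5c: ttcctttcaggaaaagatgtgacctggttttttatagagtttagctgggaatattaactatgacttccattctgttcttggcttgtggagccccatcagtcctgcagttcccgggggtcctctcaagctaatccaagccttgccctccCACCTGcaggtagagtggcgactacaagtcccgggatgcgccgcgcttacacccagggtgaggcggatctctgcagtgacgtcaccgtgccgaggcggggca
Syt1: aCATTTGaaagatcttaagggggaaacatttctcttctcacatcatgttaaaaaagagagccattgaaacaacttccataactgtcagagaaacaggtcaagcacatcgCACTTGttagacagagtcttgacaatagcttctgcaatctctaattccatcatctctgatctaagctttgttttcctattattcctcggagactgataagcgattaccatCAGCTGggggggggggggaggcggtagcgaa
Dcx: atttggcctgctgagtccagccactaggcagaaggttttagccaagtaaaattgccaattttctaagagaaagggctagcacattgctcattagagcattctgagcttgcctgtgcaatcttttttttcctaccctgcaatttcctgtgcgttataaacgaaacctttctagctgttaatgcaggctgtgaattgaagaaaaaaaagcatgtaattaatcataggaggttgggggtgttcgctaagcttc
The window of Elavl3 holds 2 E-boxes, that of Kif5c 1 and that of Syt1 3, and the printed window of Dcx holds none. The window of the first start of Syt1, not printed, holds 0, and that of the second start of Dcx 0. These are matches of letters in a window of fixed length, and binding was not measured.

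The group spanned a wide range of levels when ordered by level per kilobase of exon. At the top were 90.0 CPM per kilobase for Gap43, 67.2 for Map2, 51.4 for Rtn1, 44.7 for Dpysl3, 37.8 for Kif1a and 34.1 for Stmn3, as means over the 12 libraries. Ncam1 (23.9), Crmp1 (18.5), Tubb3 (11.997) and Ina (11.0) came next. The genes of vesicle release were lower, with Syn1 at 6.92, Syp at 2.99, Syt1 at 1.56 and Snap25 at 1.36 CPM per kilobase. Rbfox3, which encodes the mature-neuron antigen NeuN, was at 0.581, Nefl at 0.575, Celf4 at 0.176 and Ank3 at 0.147. Neighbours in this order often did not differ beyond the spread of their libraries; the points of Dpysl3 and Kif1a, for example, overlap in the plot of levels by library.

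The 6 genes under 1 CPM were close to or under the floor of detection in most libraries. Slc17a6, the vesicular glutamate transporter VGLUT2, had 0 reads in all 12 libraries, which allows at most 3 reads per library. Slc17a7 (VGLUT1) had 77 reads over the 12 libraries, Gad2, a GABA-producing enzyme, had 39, Stmn2, a growth-associated stathmin of neurons, had 44, and Sncb (beta-synuclein) had 50. Cntn2, a surface protein of young axons, had 139 reads and was the only one of the 6 tested, in the E47 line but not in the E12 line, and in the fits that join libraries of both lines. It was at 0.0479, 1.11 and 0.324 CPM in E47KO libraries, against 0.136, 0.107 and 0.426 CPM in E47wt libraries, so that E47KO replicate 2 stood alone, and its log2 fold change of 1.06 ± 0.96 (edgeR, BH-adjusted p = 0.971) was −0.22 without that library. Of the 4 transmitter genes, Gad1 alone was above 1 CPM.

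Among the genes of microtubules and the growth cone, no gene passed the adjusted threshold, and 9 of 10 tested lay below 0 in E12KO (median −0.31) and 8 of 10 in E47KO (median −0.09). Dcx, doublecortin, a microtubule-binding protein of migrating young neurons, had 23.7, 19.8 and 13.1 CPM in E12KO libraries, against 26.1, 22.7 and 58.7 CPM in E12wt libraries. Across the E47 line its values were 17.9, 29.6 and 14.3 CPM in E47KO libraries, against 30.9, 25.3 and 30.9 CPM in E47wt libraries. The single E12wt library at 58.7 CPM lay far above the other 5 E12 libraries, of which the remaining E12wt values of 22.7 and 26.1 CPM overlapped E12KO; in the E47 line only E47KO replicate 2 reached the E47wt range. The fitted log2 fold change was −0.92 ± 0.36 in E12KO (edgeR, unadjusted p = 0.0303, BH-adjusted p = 0.531) and −0.38 without E12wt replicate 3. In E47KO it was −0.51 ± 0.27 (edgeR, BH-adjusted p = 0.971), and −0.87 without E47KO replicate 2 or −0.28 without E47KO replicate 3.

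Stmn4, a stathmin that binds tubulin dimers, was, like Dcx, highest in E12wt replicate 3. It had 12.3, 8.58 and 9.79 CPM in E12KO libraries, against 13.5, 9.06 and 28.6 CPM in E12wt libraries. For E47 it had 10.3, 9.73 and 7.19 CPM in E47KO libraries, against 13.3, 9.69 and 15.6 CPM in E47wt libraries. That library stood alone, at 2.68 times the mean of the other 5 against 2.78 times for Dcx, and the E12 groups overlapped otherwise. Its log2 fold change was −0.73 ± 0.36 in E12KO and −0.52 ± 0.23 in E47KO (edgeR, BH-adjusted p = 0.572 and 0.971); without E12wt replicate 3 that of E12KO was −0.15. Stmn3, a second stathmin of neurons, had 38.2, 26.1 and 31.9 CPM in E12KO libraries, against 37.9, 33.6 and 48.4 CPM in E12wt libraries, and its log2 fold change of −0.32 ± 0.16 came with overlapping groups. Stmn3 had 42.8, 46.0 and 34.7 CPM in E47KO libraries, against 46.8, 35.2 and 43.1 CPM in E47wt libraries, with a fold change of −0.03 ± 0.16.

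The collapsin response mediators link guidance signals to microtubules in the growth cone. Crmp1 had 136, 101 and 119 CPM in E12KO libraries, against 143, 132 and 167 CPM in E12wt libraries. In E47 cells Crmp1 had 123, 112 and 121 CPM in E47KO libraries, against 146, 122 and 145 CPM in E47wt libraries. Its values overlapped between the groups of both lines, at log2 fold changes of −0.30 ± 0.12 in E12KO and −0.23 ± 0.11 in E47KO (edgeR, BH-adjusted p = 0.531 and 0.971). Dpysl5 had 49.1, 49.7 and 50.5 CPM in E12KO libraries, against 52.6, 62.0 and 78.0 CPM in E12wt libraries. The E12 groups did not overlap and the 3 E12KO libraries lay close together, at a log2 fold change of −0.36 ± 0.12 (95% interval −0.65 to −0.08; edgeR, BH-adjusted p = 0.523), which was −0.21 without E12wt replicate 3. For the E47 line Dpysl5 had 58.1, 64.9 and 45.1 CPM in E47KO libraries, against 53.8, 54.1 and 62.0 CPM in E47wt libraries, with groups that overlapped and a fold change of −0.03 ± 0.16. Dpysl3, the most abundant of these, had 295, 253 and 236 CPM in E12KO libraries, against 287, 239.9 and 389 CPM in E12wt libraries, with 248, 326 and 339.9 CPM in E47KO libraries, against 344, 263 and 321 CPM in E47wt libraries; its fold changes were −0.22 ± 0.16 in E12KO (−0.017 without E12wt replicate 3) and −0.04 ± 0.16 in E47KO, and the groups overlapped in both lines.

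Map2, which stabilises microtubules in dendrites, was the gene with the most reads of the group and differed least between libraries. It had 1099, 1253 and 1068 CPM in E12KO libraries, against 1139.7, 1170.0 and 1041 CPM in E12wt libraries. In the second line Map2 had 974, 971 and 1161 CPM in E47KO libraries, against 1157, 1152 and 1086 CPM in E47wt libraries. The highest library stood only 1.29 times above the lowest, and the log2 fold changes were 0.03 ± 0.08 in E12KO (95% interval −0.16 to 0.22) and −0.14 ± 0.11 in E47KO (95% interval −0.40 to 0.11). Gap43, a growth cone protein of extending axons, had 105, 127 and 154 CPM in E12KO libraries, against 129.6, 148 and 137 CPM in E12wt libraries. Gap43 also had 112, 41.1 and 175 CPM in E47KO libraries, against 155, 133 and 228 CPM in E47wt libraries, where E47KO replicate 2 was the lowest of the 12 libraries and E47wt replicate 3 the highest. Its log2 fold change was −0.10 ± 0.12 in E12KO and −0.67 ± 0.47 in E47KO, the second being −0.28 without E47KO replicate 2, −1.15 without E47KO replicate 3 and −0.41 without E47wt replicate 3. Of Tubb3 (the neuron-enriched beta-tubulin) and Mapt (the axonal protein tau), with 13.0 to 41.6 CPM and 23.6 to 108 CPM, the highest of the 12 libraries was E47KO replicate 2. Their fold changes were −0.38 ± 0.14 and −0.17 ± 0.19 in E12KO, and 0.26 ± 0.39 and 0.45 ± 0.51 in E47KO, where they became −0.23 and −0.26 without that library.

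**Figure D2:**
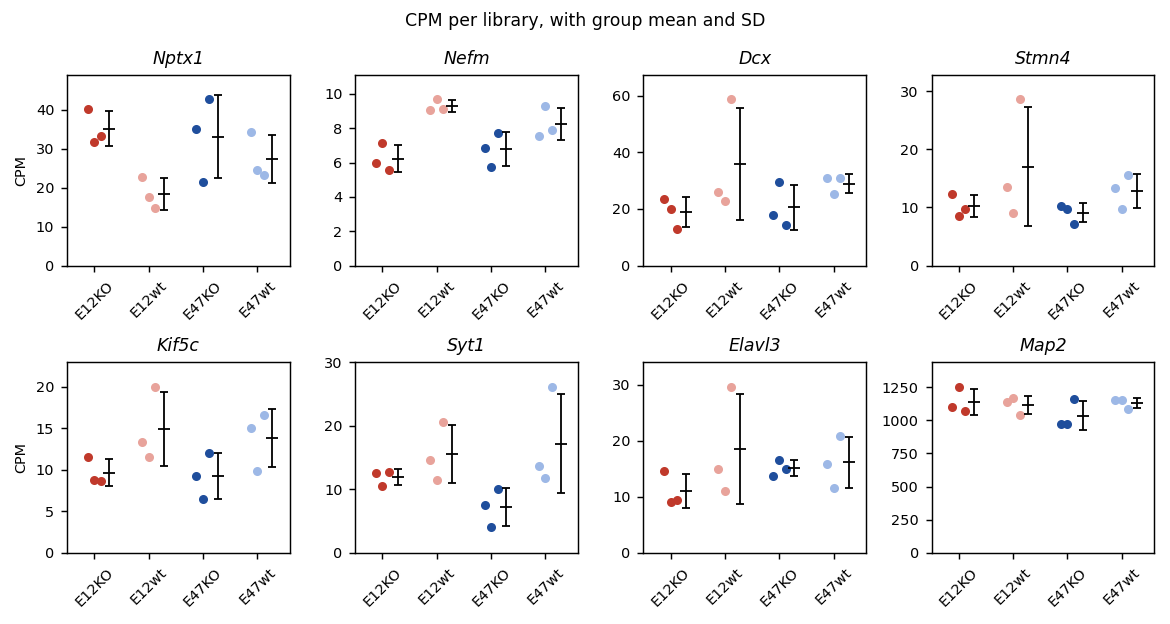
CPM of 8 genes in each library, with the points of a group side by side and the group mean with its SD (n = 3) as a black bar to the right, and CPM axes that start at 0. Nptx1 is higher and Nefm lower in all 3 E12KO libraries than in any E12wt library, Syt1 is lower in all 3 E47KO libraries than in any E47wt library, and E12wt replicate 3 stands far above the other 5 E12 libraries for Dcx, Stmn4 and Elavl3.

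Neurofilaments give the axon its calibre, and their medium and light chains were among the lowest p-values of the group in E12KO. Nefm, the medium chain, had 5.98, 7.13 and 5.58 CPM in E12KO libraries, against 9.06, 9.67 and 9.13 CPM in E12wt libraries. The groups did not overlap and the lowest E12wt value was 9.06 CPM, against a highest E12KO value of 7.13 CPM. The log2 fold change was −0.57 ± 0.13 (95% interval −0.87 to −0.28; edgeR, unadjusted p = 0.00178, BH-adjusted p = 0.468), and it stayed between −0.69 and −0.50 with any 1 of the 6 libraries left out. DESeq2 called Nefm, at −0.58 (BH-adjusted p = 0.0261), and the authors' deposited table has it at −0.56 with an adjusted p of 0.0365. With a library left out, DESeq2 called Nefm in 1 of 6 fits, the one without E12KO replicate 2. Nefm further had 6.85, 5.74 and 7.73 CPM in E47KO libraries, against 7.57, 9.31 and 7.90 CPM in E47wt libraries, with overlap and a fold change of −0.30 ± 0.18 (edgeR, BH-adjusted p = 0.971). Nefl, the light chain, had 1.46, 1.20 and 1.33 CPM in E12KO libraries, against 1.56, 2.10 and 3.84 CPM in E12wt libraries, with no overlap and a log2 fold change of −0.90 ± 0.32, which was −0.46 without E12wt replicate 3. Nefl was measured at 1.34, 0.499 and 2.95 CPM in E47KO libraries, against 2.39, 1.71 and 2.92 CPM in E47wt libraries, with overlap and a fold change of −0.55 ± 0.56, which was −0.13 without E47KO replicate 2, −1.32 without E47KO replicate 3 and −0.35 without E47wt replicate 3. Ina (alpha-internexin), at 29.9 to 46.0 CPM, was at −0.26 ± 0.13 in E12KO and −0.14 ± 0.13 in E47KO. Ank3, the ankyrin of the axon initial segment, at 2.36 to 7.80 CPM, was at 0.34 ± 0.28 in E12KO and −0.25 ± 0.44 in E47KO.

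Of the motors that carry cargo along axons, Kif5c, a heavy chain of conventional kinesin, had 11.5, 8.75 and 8.65 CPM in E12KO libraries, against 13.3, 11.6 and 20.0 CPM in E12wt libraries. The E47 values of Kif5c were 9.25, 6.54 and 12.02 CPM in E47KO libraries, against 15.02, 9.89 and 16.6 CPM in E47wt libraries. The E12 groups did not overlap, though by a narrow margin, with 11.5 CPM at the top of E12KO and 11.6 CPM at the bottom of E12wt; in the E47 line E47wt replicate 2 lay inside the E47KO range. The log2 fold changes of Kif5c were −0.63 ± 0.21 in E12KO and −0.59 ± 0.28 in E47KO (edgeR, BH-adjusted p = 0.523 and 0.971), and −0.37 in E12KO without E12wt replicate 3. In E47KO it was −0.11 with Xist above or under 10 CPM as a covariate. Only E47wt replicate 2 of the wild types has the Xist level of the knockouts in that fit. Kif1a, a motor of synaptic vesicle precursors, had 383, 348 and 345 CPM in E12KO libraries, against 352, 378 and 296 CPM in E12wt libraries, with 356, 417 and 283 CPM in E47KO libraries, against 411, 380.2 and 287 CPM in E47wt libraries. The groups of Kif1a overlapped in both lines, at fold changes of 0.07 ± 0.10 in E12KO and −0.04 ± 0.19 in E47KO.

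All 5 genes of RNA-binding proteins lay below 0 in E12KO (median −0.46), and 4 of 5 did in E47KO (median −0.11). Rbfox3, a splicing factor, had 2.58, 2.45 and 2.40 CPM in E12KO libraries, against 3.19, 4.18 and 3.21 CPM in E12wt libraries, with no overlap. Its log2 fold change was −0.51 ± 0.17 in E12KO (95% interval −0.89 to −0.12; edgeR, BH-adjusted p = 0.523). Rbfox3 stood at 3.69, 3.69 and 3.80 CPM in E47KO libraries, against 3.24, 3.45 and 4.71 CPM in E47wt libraries, and the fold change was −0.04 ± 0.21 (95% interval −0.54 to 0.45). The Elavl genes encode the Hu proteins, which stabilise neuronal transcripts. Elavl3 at 9.03 to 29.6 CPM was highest in E12wt replicate 3, like Dcx and Stmn4, and its fold change of −0.74 ± 0.34 in E12KO was −0.24 without that library; in E47KO it was −0.11 ± 0.22. Elavl2 averaged 26.4 ± 3.10 CPM in E12KO and 33.3 ± 4.45 CPM in E12wt (SD, n = 3 each), with no overlap and a fold change of −0.33 ± 0.12, and was at −0.19 ± 0.20 in E47KO. Elavl4 at 33.3 to 52.6 CPM was at −0.07 ± 0.10 in E12KO and −0.23 ± 0.14 in E47KO, and Celf4 at 1.13 to 2.45 CPM was at −0.46 ± 0.27 in E12KO (−0.15 without E12wt replicate 3) and 0.30 ± 0.29 in E47KO.

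Of the genes of vesicle release, 4 of 4 tested lay below 0 in E12KO (median −0.26) and 3 of 4 in E47KO (median −0.16). Syt1, the calcium sensor of vesicle fusion, had the largest fitted change of the group in E47KO. Syt1 had 7.60, 4.13 and 9.999 CPM in E47KO libraries, against 13.7, 11.8 and 26.1 CPM in E47wt libraries. The E47 groups did not overlap, with E47KO replicate 2 lowest of the 12 libraries and E47wt replicate 3 highest. The log2 fold change was −1.26 ± 0.40 (95% interval −2.20 to −0.32; edgeR, unadjusted p = 0.0157, BH-adjusted p = 0.971), and −0.82 to −1.54 with any 1 of the 6 libraries left out. With the same Xist split as a covariate it was −0.72. The authors' deposited table has it at −1.25 with an adjusted p of 0.807. In the E12 line Syt1 had 12.6, 10.5 and 12.8 CPM in E12KO libraries, against 14.6, 11.5 and 20.6 CPM in E12wt libraries, with overlap and a fold change of −0.38 ± 0.20, which was −0.14 without E12wt replicate 3. Syn1 (synapsin 1, at 18.2 to 27.4 CPM) was at −0.28 ± 0.13 in E12KO and −0.16 ± 0.12 in E47KO. Syp (synaptophysin, at 13.6 to 18.5 CPM) was at −0.18 ± 0.12 in E12KO and 0.01 ± 0.13 in E47KO. Snap25, a SNARE of vesicle fusion (at 7.06 to 11.5 CPM), was at −0.25 ± 0.17 in E12KO and −0.15 ± 0.20 in E47KO.

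Of the surface and membrane genes, 1 of 4 tested lay below 0 in E12KO (median 0.05) and 2 of 5 in E47KO (median 0.11). Nptx1, neuronal pentraxin 1, a secreted protein that gathers glutamate receptors at synapses, had 40.2, 31.8 and 33.4 CPM in E12KO libraries, against 22.8, 17.6 and 14.8 CPM in E12wt libraries. The second line gave 35.0, 21.6 and 42.7 CPM in E47KO libraries, against 34.4, 24.5 and 23.4 CPM in E47wt libraries. Every E12KO library lay above every E12wt library, with means of 35.1 ± 4.48 CPM in E12KO and 18.4 ± 4.02 CPM in E12wt (SD, n = 3 each), while the E47 groups overlapped. The log2 fold change in E12KO was 0.93 ± 0.16 (95% interval 0.57 to 1.30; edgeR, unadjusted p = 0.000311, BH-adjusted p = 0.241), and 0.79 to 1.11 with any 1 of the 6 libraries left out. DESeq2 called it at 0.93 (BH-adjusted p = 2.15e-05), and also in all 6 fits with a library left out, and edgeR with no low-count filter called it too (BH-adjusted p = 0.0254). The authors' deposited table has 0.93 with an adjusted p of 3.9e-05. In E47KO the fold change was 0.26 ± 0.27 (edgeR, BH-adjusted p = 0.971).

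Nptx1 was also the 1 gene of 31 tested that had an unadjusted p under 0.05 between the wild types, beside 2.05% of all tested genes lower, 1.77% higher and 3.81% in either direction. It lay lower in E12wt than in E47wt, with no overlap (4.93% of all genes apart and lower, 4.51% apart and higher), at a log2 fold change of −0.57 ± 0.20 (edgeR, unadjusted p = 0.0222, BH-adjusted p = 1.000); with the replicate number as a block, 3 genes had such a p, beside 7.45% of all genes (1109 of 14892), with Nptx1 at −0.57 (BH-adjusted p = 0.357). Without the block, Nptx1 was at −0.38 without E47wt replicate 1. With 1 library left out the count was 0 to 2, beside 2.58% to 5.86% of all genes, and it was 0 without E12wt replicate 2 (5.86% of all genes), E12wt replicate 3 (3.11%) or E47wt replicate 1 (2.95%). The 3 E12wt libraries and E47KO replicate 2 had the lowest values of the 12, and the E12KO values of 31.8 to 40.2 CPM lay within the range of the E47 line, 21.6 to 42.7 CPM. Between the wild types 13 of 31 genes lay below 0 (48.5% of all genes), and neither edgeR (0 of 14892 over all genes, 0%) nor DESeq2 (7 of 14889 over all genes, 0.0470%) called any of the 36. Ncam1, a neural adhesion molecule at 168 to 277 CPM, was at 0.06 ± 0.09 in E12KO and 0.11 ± 0.20 in E47KO. Nrxn3, a presynaptic neurexin at 4.77 to 10.1 CPM, was at −0.27 ± 0.15 in E12KO and −0.29 ± 0.31 in E47KO. Rtn1, a reticulon of the endoplasmic reticulum, had 267, 249.8 and 255 CPM in E12KO libraries, against 258, 272 and 219 CPM in E12wt libraries, with 270.4, 199 and 308 CPM in E47KO libraries, against 269, 243 and 263 CPM in E47wt libraries. Its groups overlapped in both lines, at fold changes of 0.04 ± 0.09 in E12KO and −0.01 ± 0.16 in E47KO.

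Gad1, the enzyme that makes GABA, was the only transmitter gene above 1 CPM and varied more between libraries than any other gene of the group with that level, with an SD of log2 CPM over the 12 libraries of 0.761, before Nefl (0.749) and Syt1 (0.664). It had 8.24, 5.38 and 3.56 CPM in E12KO libraries, against 8.37, 6.82 and 4.95 CPM in E12wt libraries. It also had 6.40, 16.3 and 2.09 CPM in E47KO libraries, against 8.87, 5.41 and 3.49 CPM in E47wt libraries. In all 4 groups replicate 3 was the lowest, and E47KO replicate 2 was the highest of the 12 libraries. The log2 fold change was −0.23 ± 0.30 in E12KO and 0.46 ± 0.69 in E47KO, with a 95% interval of −1.14 to 2.07, and −0.50 without E47KO replicate 2.

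**Figure D3:**
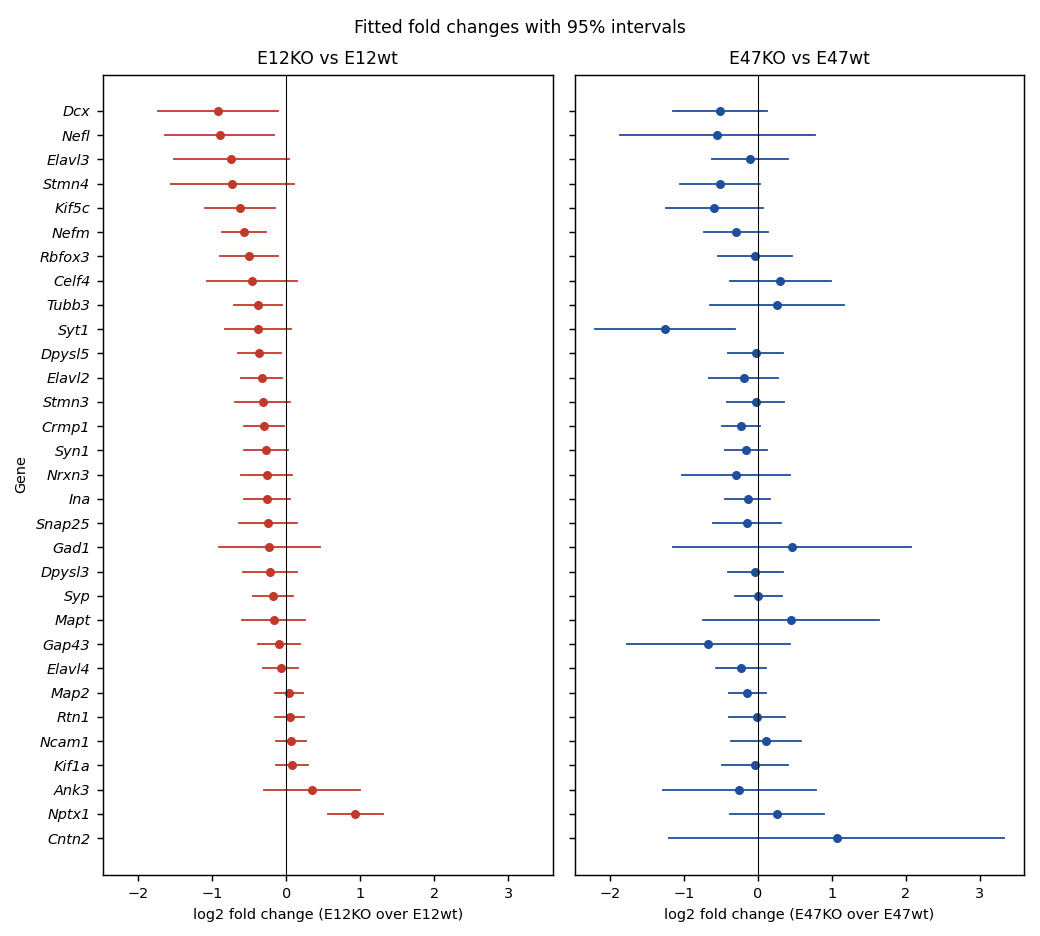
Fitted log2 fold change of each tested gene (points) with its 95% interval (lines), for E12KO over E12wt at the left (30 genes) and E47KO over E47wt at the right (31 genes), both on the same axis and ordered by the E12 value. The points lie left of 0 for 24 of 30 genes in E12KO and 23 of 31 in E47KO, and the interval excludes 0 for 10 genes in E12KO and for Syt1 in E47KO.

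At an unadjusted p under 0.05, edgeR gave 10 of the 30 genes in E12KO, 1 higher (Nptx1) and 9 lower (Nefm, Kif5c, Rbfox3, Dpysl5, Nefl, Elavl2, Tubb3, Dcx and Crmp1), beside 4.29% of all tested genes higher, 4.67% lower and 8.96% in either direction. With 1 library left out this count was between 4 of 31 without E12KO replicate 2 (9.73% of all genes) and 17 of 30 without E12wt replicate 2 (14.4% of all genes), with 6 of 31 without E12KO replicate 3 (3.80%), 8 of 30 without E12wt replicate 3 (6.34%), 12 of 31 without E12wt replicate 1 (7.05%) and 14 of 31 without E12KO replicate 1 (9.87%). The 2 groups did not overlap for 1 gene that was higher (6.77% of all genes) and 6 that were lower (6.95% of all genes), namely Dpysl5, Nefl, Nefm, Kif5c, Rbfox3 and Elavl2. DESeq2 called 2 genes of the 36 in E12KO, Nptx1 higher and Nefm lower, beside 0.515% of all genes (76 of 14754). The authors' deposited table lists 30 of the 36 genes in each line and has the same 2 under an adjusted p of 0.05, beside 0.513% of its genes (62 of 12088). In E47KO the unadjusted count was 1, Syt1, lower, beside 1.06% of all tested genes lower and 2.19% in either direction, and it was also the 1 gene whose groups did not overlap (3.07% of all genes apart and lower, 4.74% apart and higher). With 1 library left out the count was between 0 of 31 without E47wt replicate 3 (1.87% of all genes) and 5 of 31 without E47KO replicate 3 (9.36%), with 3 without E47KO replicate 2 (3.35%), 4 without E47wt replicate 2 (1.18%) and 1 without E47KO or E47wt replicate 1 (2.01% and 0.971%). DESeq2 called none of the group in E47KO (12 of 13509 genes, 0.0888%), giving 1 of the 31 no adjusted p, nor does the authors' deposited table (10 of 12556, 0.0796%). Same-numbered libraries of the E47 line deviated together, and with the replicate number as a block 3 genes had an unadjusted p under 0.05, beside 3.29% of all genes (493 of 14965), namely Syt1 (log2 fold change −1.26), Kif5c (−0.60) and Gap43 (−0.85), each with an edgeR BH-adjusted p of 0.866.

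**Figure D4:**
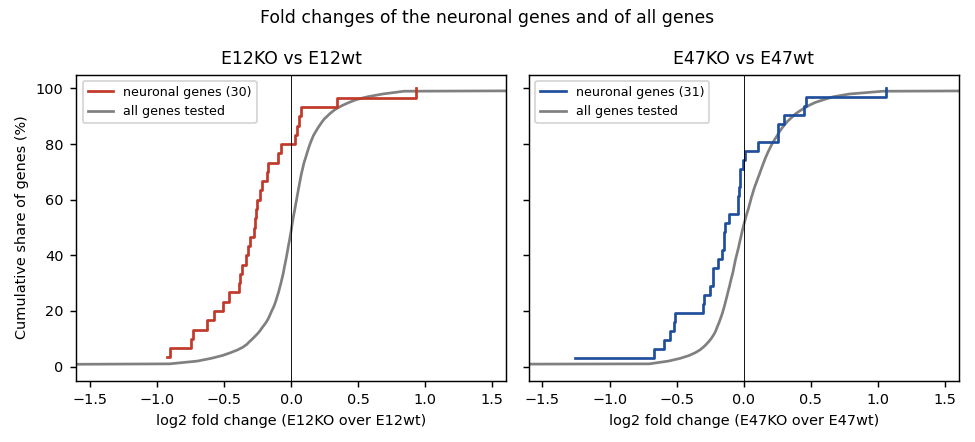
Cumulative share of genes (in %) by fitted log2 fold change, for the tested neuronal genes (steps) and for all tested genes (grey line), in E12KO over E12wt at the left and E47KO over E47wt at the right. The steps run left of the grey line over most of their range, with 80.0% of the genes below 0 in E12KO against 48.6% of all genes, and 74.2% in E47KO against 51.0%.

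The 2 lines share no library, though same-numbered wild-type libraries were taken to pair across them, and 30 genes were tested in both. Of these, 19 (63.3%) lay below 0 in E12KO and in E47KO, beside 25.7% of 14614 genes. Another 2 (6.67%) lay above 0 in both, which were Nptx1 and Ncam1, beside 25.7% of all genes, and 9 differed in sign. With 24 of 30 genes below 0 in E12KO alone and 23 of 31 in E47KO alone, many would lie below 0 in both even if the lines were unrelated. Agreement between the lines gene by gene was not tested. With both lines in 1 fit, either knockout against wild type, edgeR called 0 of 31 genes (0.0262% of all genes, 4 of 15277). The unadjusted p was under 0.05 for 8, with 1 higher (Nptx1, 2.64% of all genes) and 7 lower (Nefm, Syt1, Kif5c, Crmp1, Dcx, Stmn4 and Syn1, 3.11% of all genes), beside 5.75% in either direction; with 1 library left out it was so for 6 to 10, beside 3.28% of all genes (6 genes, without E12KO replicate 3) to 14.1% (10 genes, without E47KO replicate 3). In fits of both lines the replicate block was set within each line, so it left out the pairing across lines. With the replicate block 13 of 31 had such a p, beside 6.64% of all genes (1015 of 15277), and with the Xist covariate 2.68% of all genes did and 2 of the group. Nefm was at −0.44 ± 0.11 in this fit (edgeR, BH-adjusted p = 0.496), and DESeq2 called it at −0.44 (BH-adjusted p = 0.0233), beside 0.389% of all genes. The difference between the knockout effects, E12 minus E47, was called for 0 of 31 genes by edgeR (0 of 15277, 0%) and by DESeq2 (1 of 15264 over all genes, 0.00655%), and with no block, no gene of the group had an unadjusted p under 0.05 with edgeR (3.03% of all genes, with 1.83% higher). With the replicate block 2 of 31 had one, beside 3.70% of all genes (566 of 15277), which were Syt1 at 0.91 and Nptx1 at 0.72. With 1 library left out the count was 0 to 2, beside 1.97% to 5.15% of all genes, apart from 6 without E47KO replicate 3 (11.6% of all genes). It lay below 0 for 22 of 31 genes (50.7% of all genes). The difference was 0.67 ± 0.34 for Nptx1 (95% interval −0.08 to 1.42) and 0.87 ± 0.49 for Syt1 (95% interval −0.19 to 1.94) with no block. That of Nptx1 was 0.44 without E47KO replicate 2. That of Syt1 was 0.44 without E47wt replicate 3 and 0.33 with the Xist covariate.

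The size of these differences shifted when single libraries were left out. In the E12 line, E12wt replicate 3 was the highest of the 6 libraries for 18 of the 30 genes, beside 27.96% of all tested genes, and the genes' median deviation from the mean of the line was 0.33 there. E12KO replicates 2 and 3 were the lowest for 10 and 11 genes, beside 19.9% and 20.7% of all tested genes. Without E12wt replicate 3, 27 of 30 genes lay below 0 in E12KO and the median was −0.16, and edgeR called 10 genes over all, none of them in the group. Beside the genes given above, leaving out that library brought Stmn3 to −0.17, Ina to −0.15, Mapt to −0.066 and Syp to −0.076, each nearer to 0 by over 1.5 times, and Ank3 to 0.64 and Snap25 to −0.41, both farther from it. Without E12wt replicate 2, Ank3 was at 0.057, Snap25 at −0.12 and Nrxn3 at −0.17. In E12wt replicate 3, markers of the oligodendrocyte lineage (14 genes) summed to 1647 CPM, against 1013 to 1235 CPM in E12KO and 1145 and 1189 CPM in the other E12wt libraries. Astrocyte markers (12 genes) summed to 1049 CPM there, against 1373 to 1606 CPM in E12KO and 1311 and 1528 CPM in the other E12wt libraries. Their part in the difference of the neuronal genes was not tested.

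In the E47 line, E47KO replicate 2 was the highest of the 6 libraries for 8 and the lowest for 13 of the 31 genes, beside 34.6% and 34.3% of all tested genes. The high ones included Gad1 at 3.11 times, Mapt at 2.60 times and Tubb3 at 2.00 times the mean of the other 5 libraries. The low ones included Nefl at 0.220 times, Gap43 at 0.256 times and Syt1 at 0.299 times that mean. In this library intermediate progenitor markers (9 genes) summed to 523 CPM, against 307 and 308 CPM in the other E47KO libraries and 281 to 304 CPM in E47wt. Astrocyte markers summed to 2245 CPM, against 1222 and 1427 CPM in the other E47KO libraries and 1055 to 1534 CPM in E47wt, and proliferation genes (10 genes) to 2325 CPM, against 3264 and 4222 CPM in the other E47KO libraries and 3342 to 3878 CPM in E47wt. Without E47KO replicate 2, 27 of 31 genes lay below 0 (51.3% of all genes), with a median of −0.15. Without E47KO replicate 3, 20 of 31 did (48.6% of all genes), with a median of −0.081, and 19 to 24 of 31 did without any other 1 of the 6 libraries. Of the genes that kept their sign, leaving out E47KO replicate 2 or 3 moved Elavl2 to −0.064 or −0.38, Nrxn3 to −0.54 or −0.066, and Nptx1 to 0.49 or 0.053. Without E47KO replicate 1, Snap25 was at −0.32, Celf4 at 0.50, Ina at −0.23 and Elavl4 at −0.13. With Xist above or under 10 CPM as a covariate, which leaves E47wt replicate 2 as the only wild-type library with the Xist level of the knockouts, 16 of 31 genes lay below 0 (48.7% of all genes) and the median was −0.06, and no gene of the group had an unadjusted p under 0.05 (0.655% of all genes did). The covariate brought the log2 fold change nearer to 0 by over 1.5 times for Dcx (−0.32), Stmn4 (−0.11), Crmp1 (−0.063), Gap43 (−0.30), Nefl (−0.10), Elavl2 (−0.077), Syn1 (−0.078) and Ncam1 (0.051), as for Kif5c and Syt1 above. It moved Kif1a to −0.13, Syp to 0.043, Nefm to −0.48, Nrxn3 to −0.46, Mapt to 0.69, Celf4 to 0.55, Nptx1 to 0.42 and Cntn2 to 2.12, each farther from 0 by over 1.5 times, and the genes whose sign turned are given under the processing heading.

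**Figure D5:**
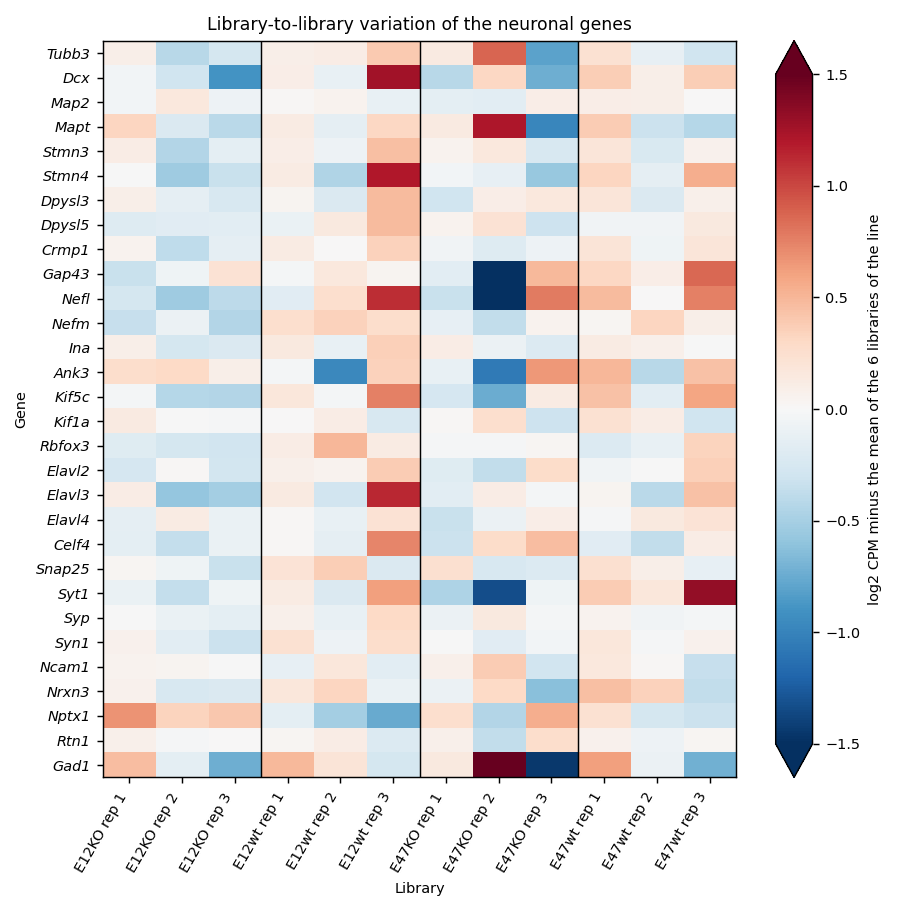
Deviation of log2 CPM from the mean of the 6 libraries of the line, for the 30 genes with a mean of at least 1 CPM (rows) in the 12 libraries (columns, with each knockout left of its wild type); red is above and blue below the mean. The column of E12wt replicate 3 is red for Dcx, Stmn4, Elavl3 and Nefl, and that of E47KO replicate 2 is red for Gad1 and Mapt and blue for Gap43, Nefl and Syt1.

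The spread between the libraries of a group was larger at the median of these genes than at the median of all genes. The SD of log2 CPM within groups, pooled over the 4 groups, had a median of 0.247 over the 30 genes with at least 1 CPM, 0.252 over 66 other neuronal genes and 0.188 over all 12588 genes of at least 1 CPM. Among the 30 genes it ran from 0.109 to 0.882. The summed level of all 36 genes, of which Map2 is the largest share, was 2756 to 2952 CPM in E12KO and 2959 to 3030 CPM in E12wt, and 2754 to 2965 CPM in E47KO and 2941 to 3232 CPM in E47wt, so the sums overlapped in the E47 line and were apart by a narrow margin in the E12 line.

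A list of 85 other neuronal genes, with further tubulins, channels, synaptic proteins and neuronal transcription factors, also had more members below 0 than above. In E12KO 76 of them were tested, 56 lay below 0 with a median of −0.16, and none was called by edgeR or DESeq2; 3 were higher and 13 lower at an unadjusted p under 0.05, beside 4.29% of all tested genes higher, 4.67% lower and 48.6% below 0. In E47KO 75 were tested, 50 lay below 0 with a median of −0.08, and edgeR called none; 5 were lower at an unadjusted p under 0.05, beside 1.06% of all tested genes lower and 51.0% below 0. Cntn1, an adhesion protein of axons and their contacts with glia, was the 1 gene among the lowest 4 p-values of both lines. It had 129.8, 75.5 and 59.0 CPM in E12KO libraries, against 166, 129.8 and 217 CPM in E12wt libraries, and 79.1, 67.8 and 83.9 CPM in E47KO libraries, against 167, 105 and 158 CPM in E47wt libraries. The E47 groups did not overlap and the E12 groups all but met, with E12KO replicate 1 just under E12wt replicate 2, at log2 fold changes of −0.95 ± 0.28 in E12KO and −0.91 ± 0.19 in E47KO (edgeR, BH-adjusted p = 0.507 and 0.971); DESeq2 called it in E47KO (BH-adjusted p = 0.0485) and not in E12KO. With the Xist covariate it was at −0.47 in E47KO. The difference between the lines for Cntn1 was −0.05 ± 0.39. In E12KO the other 3 were Dpysl4, a collapsin response mediator (log2 fold change −0.50 ± 0.13), Gng3, a G protein subunit (−2.05 ± 0.66, −0.79 without E12wt replicate 3 and −0.84 with reads of both strands), and Rcor2, a corepressor (−0.42 ± 0.14, −0.24 without E12wt replicate 3). In E47KO they were Neurod1, a proneural transcription factor (−0.68 ± 0.24), Pclo, a scaffold of the release site (−0.47 ± 0.17), and Nova1, a splicing factor (−0.26 ± 0.10).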

How the data were processed

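For each of the 12 libraries the authors deposited read counts, unnormalised whole numbers with 1 row per gene, as STAR writes them; reads were handled with STAR 2.5, DESeq2 and DESeq on build mm9, per the submitters' processing notes, and the sources used here name no annotation release. The labels' protocols name a stranded mRNA kit. Counts of the strand opposite to the read, which held 97.1 to 97.2% of the strand-assigned reads, were used. For each line the authors also deposited a table of their own comparison, with mean normalized signal, log2 fold changes, a score (the log2 fold change divided by its error) and p-values.

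Counts were tested in R 4.3.3 with edgeR 4.0.16 (low-count filter by group, TMM, quasi-likelihood F test, two-sided), fitted over all genes that passed, with BH adjustment and a threshold of 0.05. Each line was fitted alone, and the difference between lines, both knockouts together and the wild types in fits of their own. The standard error is the fold change over the root of F, and intervals are at 95%. Fold changes are log2 with a prior count of 0.125. CPM come from scaling all 12 libraries together, and CPM per kilobase use exon lengths of GENCODE vM21 (GRCm38). DESeq2 1.42.0 and the settings under the processing heading were alternatives. The procedure was tested on simulated counts.

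The 36 genes, the lists and the rule for printing values per library were chosen with earlier results of these data known. Values per library are given for the 6 genes with the lowest p in each line (E12 and E47), the 6 highest per kilobase, the 3 with the largest SD and any gene called, and from the other neuronal genes, the 4 with the lowest p in each line and a mean of at least 1 CPM are named. Intervals and the floor of 3 reads cover counting error and the spread of these libraries only. No 2 libraries of a group were alike within sampling noise (chi-square over its degrees of freedom 12.0 or more). The groups share replicate numbers, whose meaning the labels leave unexplained. Over genes, the departures of same-numbered libraries from their group means correlated at 0.24, 0.26 and 0.56 for E47KO and E47wt. Libraries with different numbers were at −0.38 to 0.19 there. For E12wt and E47wt the same-numbered were at 0.15, 0.32 and 0.38, and the others at −0.36 to 0.11. The same-numbered were all above 0.1, so there the numbers were taken to pair the libraries. In the E12 line the same-numbered were at 0.14, 0.08 and −0.02, the others at −0.24 to 0.17, and the numbers were not taken to pair. Some libraries with different numbers also passed 0.1, so that threshold alone does not tell pairs apart. The main fits have no block, and the fits with the replicate block are alternatives. In fits of both lines the block was set within each line, also in the E12 line, where the numbers were not taken to pair. The pairing of wild types across lines was not part of those fits.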

Additional observations from a re-analysis of the deposited data

How the results depend on the processing

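In no comparison did any of the 36 genes pass an adjusted p of 0.05 under edgeR with DESeq2 size factors. The same held with reads of both strands, with the replicate block and without any 1 library. So it did with all 12 libraries in 1 fit (run for E12KO, E47KO and the wild types). It also held with the Xist covariate (not run for E12KO). Over all genes, calls in E12KO numbered 20 of 22494 with no low-count filter and 2 of 15277 with all 12 libraries, against 6 of 14755. The fit with no filter called 1 of the group, Nptx1. DESeq2 called 76 genes in E12KO with 2 of the group, 12 in E47KO, 57 for either knockout with 1 of the group, 7 between the wild types and 1 for the difference between lines. DESeq2 fits without 1 library were added after seeing the data. Without E12KO replicates 1, 2 and 3 they called 214 of 15011, 34 of 15026 and 20 of 14959 genes. Without E12wt replicates 1, 2 and 3 they called 50 of 14983, 421 of 15023 and 42 of 14975 genes. Of the group these fits called 2 (Nptx1, Tubb3), 2 (Nptx1, Nefm), 1 (Nptx1), 2 (Nptx1, Dpysl5), 3 (Nptx1, Stmn4, Kif5c) and 1 (Nptx1).

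With 1 library left out in edgeR, calls over all genes ranged from 2 to 10 in E12KO, 0 to 7 in E47KO, 2 to 4 for either knockout and 0 to 1 for the difference. In E12KO 24 to 26 of 31 genes lay below 0 without any 1 E12KO library or E12wt replicate 1, 24 of 30 without E12wt replicate 2 and 27 of 30 without E12wt replicate 3; in E47KO it was 19 to 27 of 31. The sign turned in E12KO for Gap43 (−0.24 to 0.029), Map2 (−0.045 to 0.082), Gad1 (−0.58 to 0.025), Kif1a (−0.031 to 0.15), Elavl4 (−0.16 to 0.0066), Ncam1 (−0.0078 to 0.17) and Rtn1 (−0.051 to 0.11), with the range over the 6 fits in parentheses. In E47KO it turned for Dpysl3 (−0.14 to 0.087), Tubb3 (−0.23 to 0.60), Mapt (−0.26 to 0.85), Ank3 (−0.73 to 0.077), Syp (−0.070 to 0.053), Ncam1 (−0.073 to 0.28), Cntn2 (−0.22 to 1.96), Rtn1 (−0.13 to 0.15), Gad1 (−0.50 to 0.94), Stmn3 (−0.14 to 0.099), Dpysl5 (−0.15 to 0.13), Kif1a (−0.19 to 0.11), Rbfox3 (−0.14 to 0.15) and Elavl3 (−0.29 to 0.13). For either knockout, where the fit without both E12wt replicate 3 and E47KO replicate 2 is included, it turned for Kif1a (−0.097 to 0.092), Gad1 (−0.45 to 0.36), Cntn2 (−0.57 to 0.51), Ank3 (−0.19 to 0.37), Celf4 (−0.16 to 0.088), Rtn1 (−0.041 to 0.10), Mapt (−0.21 to 0.34), Tubb3 (−0.30 to 0.11) and Ncam1 (−0.029 to 0.17), and between the wild types, where 3 genes were followed (Nefm, Syt1 and Nptx1), for Syt1 (−0.39 to 0.29). DESeq2 turned Gap43 (0.026) without E12KO replicate 1, Map2 (−0.049) without replicate 2, Gad1 (0.023) without replicate 3, and Map2 (−0.022), Kif1a (−0.029), Elavl4 (0.010), Ncam1 (−0.0049) and Rtn1 (−0.048) without E12wt replicate 3.

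The replicate block left 4 calls over all genes in E12KO, 2 in E47KO and 3 for either knockout, and in the last it turned Cntn2 (−0.077) and Gad1 (−0.077); beyond what is given beside the results it changed no call of the group. An unadjusted p under 0.05 was had by 11 of 30 genes in E12KO with the block (9.14% of all genes, 1349 of 14755), against 10, by 13 of 31 for either knockout (6.64%), against 8, and by 2 of 31 for the difference (3.70%), against 0. With the Xist covariate, calls over all genes were 1 in E47KO and 2 for either knockout; the sign turned in E47KO for Stmn3 (0.21), Dpysl3 (0.19), Dpysl5 (0.031), Ank3 (0.39), Rbfox3 (0.095), Elavl3 (0.36) and Rtn1 (0.077) and for either knockout for Kif1a (−0.031) and Celf4 (0.039). Between the wild types, all 12 libraries in 1 fit gave 1 call. Of 106 fold changes, 63 kept their direction and side of the threshold throughout. The cause of these shifts was not tested. Fits that leave libraries out also rest on fewer of them, and the part of that was not tested. With 3 libraries a group, the intervals of most genes span changes in both directions.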
